A study of Mus musculus with 4 samples.

Results

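DNA replication and S phase genes are described here as 37 genes, chosen by symbol, out of 20611 genes in the count tables. All 37 symbols had a row and all 37 passed the filter on low counts. They fall into 12 genes of the replicative helicase and its loading onto DNA, 5 licensing genes, 10 genes of polymerases, sliding clamp, clamp loader, flap nuclease and ligase, 4 genes of nucleotide supply, 3 chromatin genes and 3 genes of S phase entry. Libraries were made from the dorsal skin of BALB/c males, 8-9 weeks of age. All mice received imiquimod, a Toll-like receptor 7 ligand that gives a psoriasis-like dermatitis, as a 5% cream at 47 mg per day on days 1 to 5. One library (IMQ+IDMF) also received a lotion that held isosorbide di-(methyl fumarate), or IDMF, made as a dimethyl fumarate pro-drug. A further 2 libraries (IMQ+VEH replicates 1 and 2) received the lotion without the compound, and 1 library (IMQ) received the cream alone. Skin was collected on day 6. Every group carried imiquimod and no skin without it was used here, so nothing is set against resting epidermis.

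A cell that is about to copy its DNA first loads the MCM complex at origins, with the help of the origin recognition complex, CDC6 and CDT1. Cyclin E kinase and DDK then turn the loaded complex into the active CMG helicase, made of CDC45, MCM2 to MCM7 and GINS, and polymerases follow it. Many of these genes are transcribed together at the G1 to S transition by E2F factors. In skin the cycling cells lie mainly in the basal epidermis and in the hair follicle matrix, and thickened epidermis with more cycling keratinocytes is a hallmark of psoriasis.

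Total counts per library were 21991604 in IMQ+IDMF, 26639628 and 21167149 in IMQ+VEH replicates 1 and 2, and 26337985 in IMQ. Krt14, a keratin that marks basal epidermis, was at 5334 CPM in IMQ+IDMF, 4540 and 4677 CPM in IMQ+VEH and 9905 CPM in IMQ. CPM is the count scaled to library size, here with sizes adjusted by the trimmed mean of M-values (TMM). Other basal genes did not all follow Krt14. Of 12 basal keratinocyte genes that include it, 8 were higher in IMQ+IDMF than in IMQ (50.1% of tested genes), with a median log2 CPM difference of 0.097. The 2 IMQ+VEH libraries differed in cell type markers: 10 fibroblast markers summed to 6865 CPM in replicate 1 and 3562 CPM in replicate 2, and 11 monocyte, macrophage and dendritic markers to 857 and 487 CPM. The same lists summed to 2405 and 331 CPM in IMQ+IDMF and to 1873 and 589 CPM in IMQ. In whole skin, fewer cells of a type and less RNA per cell cannot be told apart.

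Promoter sequences were searched for short words. The choice of genes did not use sequence, but many genes of this role are known to be driven by E2F factors. E2F words are therefore not independent of the choice. RefSeq promoter windows on GRCm38.p6, from 250 bases before to 50 bases after the transcription start, were given for 30 of the 37 genes. Mcm4, Gins1, Gins2, Gins4, Gmnn, Pole and Ccne2 had none. An E2F word was searched on both strands, defined as any of TTTCCCGC, TTTCGCGC, TTTGCCGC and TTTGGCGC. Words on opposite strands may overlap. At least 1 word was found in 13 of the 30 genes (43.3%), against 2.6% of 27025 genes with such windows and 4.16% of the 11374 genes that were also tested for expression. Among 62 other replication genes, 17 of 49 with a window held a word (34.7%), and among 24 mitosis genes 1 of 21 did (4.76%). TTTGAA, the core of the CHR element of mitosis genes, was in 4 of the 30 replication gene promoters (13.3%) and in 15 of the 21 mitosis gene promoters (71.4%), and in 14.6% of tested genes. CCAAT was in 60% of the replication genes, 85.7% of the mitosis genes and 42% of tested genes. These matches describe letters in a window and not bound sites.

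Stretches with E2F words before the RefSeq start site of 8 genes are shown so that the form of the words can be compared. A further word of Mcm7, 17 to 24 bases after its start site, is not shown. Words are in capitals, read 5′ to 3′ on the strand of the gene. The stretches of Mcm7, Gins3, Cdc6 and Uhrf1 lie before the RefSeq start site but inside the span that GENCODE annotates for the gene. That of Orc1 also lies before its RefSeq start site, and all but its first bases lie inside the GENCODE span. The pair in Mcm5 and the first pair in Mcm6 are overlapping words on opposite strands, which read as 12 capitals.
Mcm5 (chr8:75109336-75109387, plus strand): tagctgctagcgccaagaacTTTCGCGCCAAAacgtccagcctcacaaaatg
Mcm6 (chr1:128359725-128359835, minus strand): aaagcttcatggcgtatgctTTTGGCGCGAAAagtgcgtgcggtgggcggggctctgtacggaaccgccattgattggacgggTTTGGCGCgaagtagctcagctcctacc
Mcm7 (chr5:138172031-138172058, minus strand): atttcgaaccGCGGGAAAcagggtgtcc
Gins3 (chr8:95633508-95633535, plus strand): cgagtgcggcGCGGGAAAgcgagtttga
Cdc6 (chr11:98908003-98908030, plus strand): ccggtggagaGCGGGAAAtcgcctgggg
Orc1 (chr4:108579417-108579444, plus strand): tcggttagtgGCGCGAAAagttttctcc
Pola1 (chrX:93632266-93632313, minus strand): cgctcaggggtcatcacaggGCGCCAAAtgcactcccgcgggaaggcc
Uhrf1 (chr17:56304118-56304145, plus strand): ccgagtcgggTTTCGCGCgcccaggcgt

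Expression was also compared between genes with and without an E2F word. The median log2 CPM difference of IMQ+IDMF to the IMQ+VEH mean was 0.45 in the 13 genes with a word and 0.42 in the 17 without, with ranges of 0.056 to 0.74 and 0.097 to 1.06.

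IMQ+IDMF was set against IMQ+VEH to see what the compound added to its lotion. In direction the replication genes were nearly uniform, since 36 of 37 lay above both IMQ+VEH libraries and none lay below both, where 27.7% of 15068 tested genes lay above both and 27.5% below both. The exception was Rfc3, a clamp loader subunit, which lay between them. IMQ+IDMF was the highest of all 4 libraries for 25 of the 37 and the lowest for none, against 19.2% and 19.5% of tested genes. The median log2 CPM difference was 0.42 against the IMQ+VEH mean, 0.47 against replicate 1 and 0.37 against replicate 2. Over all tested genes the median against the mean was 0.0068. Summed over the 37 genes, expression was 952 CPM in IMQ+IDMF, 651 and 749 CPM in IMQ+VEH, and 901 CPM in IMQ. No single gene passed the test. EdgeR's quasi-likelihood test called 0 of the 37 and 0.0% of all tested genes higher, with an adjusted p of 1 for every one of the 37. At an unadjusted p under 0.05 it gave 6 (Mcm2, Mcm10, Gins2, Tk1, Uhrf1 and Chaf1b), all higher, against 0.484% of tested genes higher and 1.55% lower. DESeq2 gave 0 of the 37 by adjusted and 0 by unadjusted p. The only replicated group behind this test is IMQ+VEH. The count of directions was not tested, since all 37 genes are read in the same IMQ+IDMF library and are not independent of each other. The genes were also chosen with earlier results of these data known.

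**Figure D1:**
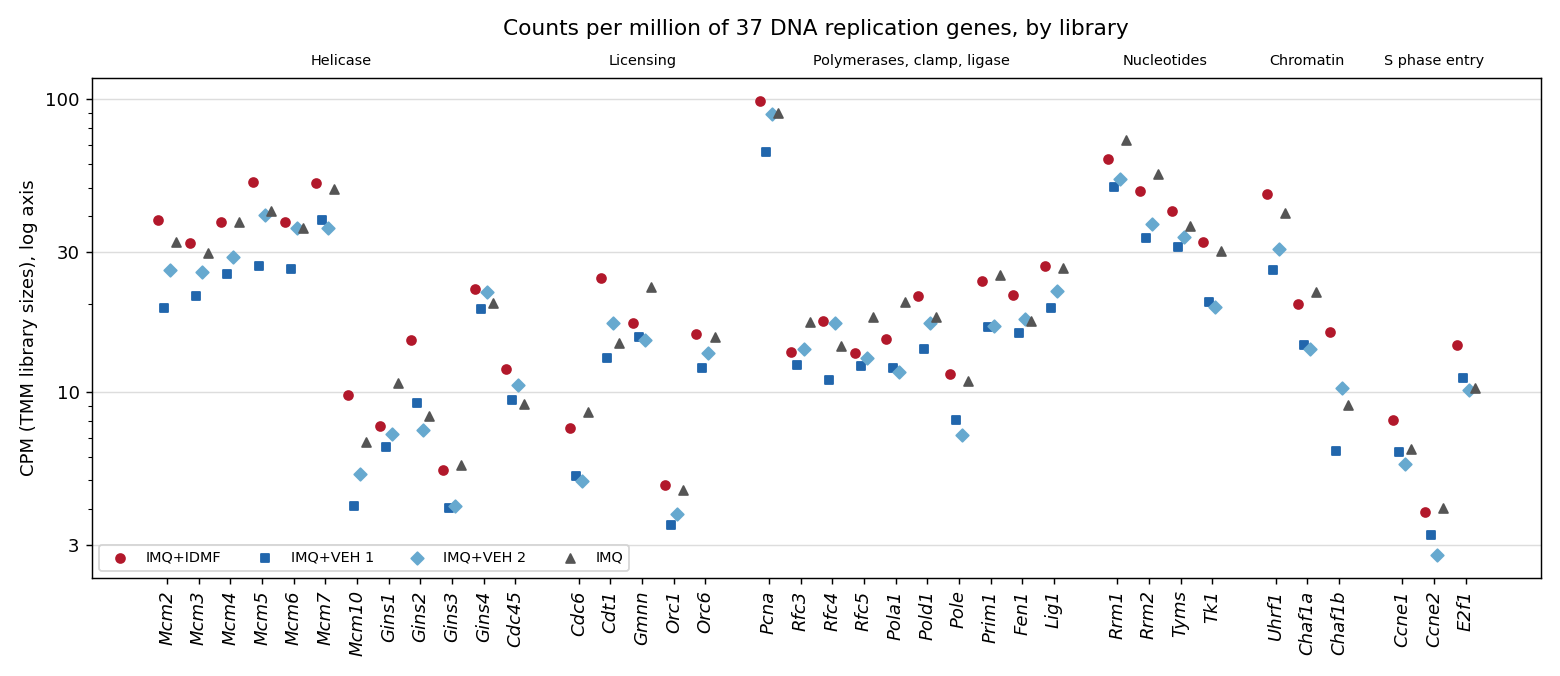
CPM of each of the 37 replication genes (horizontal axis, grouped by role) in each library, on a log vertical axis; each point is 1 library. IMQ+IDMF is the highest of the lotion-treated libraries for all genes but Rfc3, and IMQ lies above both IMQ+VEH libraries for most genes.

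Of the helicase genes, all 12 lay above both IMQ+VEH libraries, with a median log2 CPM difference of 0.46 to their mean. Mcm10, whose product joins the helicase as it is activated, had the largest difference of all 37: 9.79 CPM in IMQ+IDMF, against 4.10 and 5.27 CPM in IMQ+VEH and 6.78 CPM in IMQ (log2 fold change over IMQ+VEH 1.07, SE 0.45). Gins2, a GINS subunit, had 15.03 CPM in IMQ+IDMF, against 9.20 and 7.41 CPM in IMQ+VEH and 8.31 CPM in IMQ (0.85, SE 0.39). For both genes IMQ+IDMF stood above all 3 other libraries. IMQ lay above both IMQ+VEH libraries for Mcm10 and between them for Gins2. Mcm2, a subunit that also carries histones at the fork, had 38.6 CPM in IMQ+IDMF, against 19.4 and 26.1 CPM in IMQ+VEH and 32.7 CPM in IMQ (0.77, SE 0.30). Mcm5 had 52.1 CPM in IMQ+IDMF, against 26.9 and 40.3 CPM in IMQ+VEH and 41.4 CPM in IMQ (0.64, SE 0.30). Mcm6 had 38.1 CPM in IMQ+IDMF, against 26.3 and 36.3 CPM in IMQ+VEH and 36.4 CPM in IMQ (0.29, SE 0.30). In Mcm5, Mcm6, Gins1 and Gins4 the gap within the IMQ+VEH pair was wider than the gap between replicate 2 and IMQ+IDMF. Of all 37 genes, 28 stood above both IMQ+VEH libraries by more than the gap within the pair. Mcm3, Mcm4 and Mcm7 had log2 fold changes of 0.46, 0.49 and 0.46 (SE 0.30, 0.28 and 0.26). Gins3, Cdc45, Gins1 and Gins4 were at 0.41, 0.26, 0.16 and 0.13, each less than its SE. The counts behind Mcm10 were 108 to 219 per library.

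**Figure D2:**
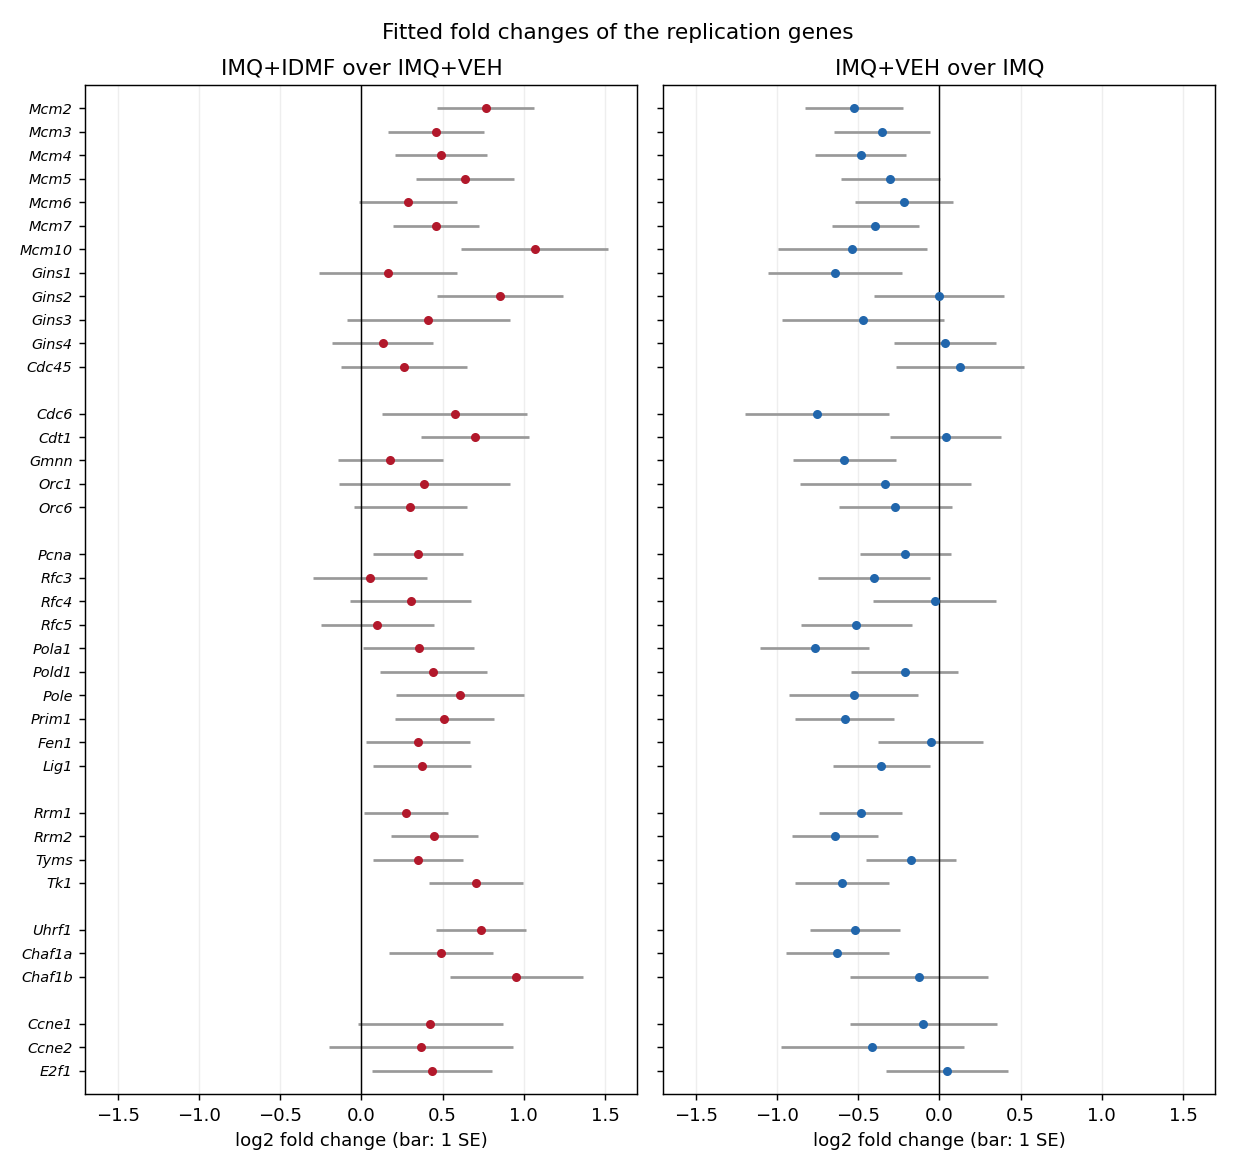
Log2 fold changes fitted by edgeR for each replication gene (vertical axis) in IMQ+IDMF over IMQ+VEH (left) and IMQ+VEH over IMQ (right); bars are 1 standard error. All 37 points lie right of 0 on the left, from 0.054 for Rfc3 to 1.07 for Mcm10, and most lie left of 0 on the right, down to -0.77 for Pola1; both panels use the IMQ+VEH pair.

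Levels of different genes can be compared per transcript length, in FPKM, which scales the reads of a gene to its length and to depth. Mcm2 to Mcm7 spanned 8.19 to 17.1 FPKM in IMQ+IDMF, 4.74 to 13.7 and 5.87 to 11.8 FPKM in IMQ+VEH, and 7.15 to 15.6 FPKM in IMQ. Mcm7 was the highest of the 6 in every library. Among the GINS genes, Gins4 was the highest at 14.1 FPKM in IMQ+IDMF, 12.8 and 13.5 FPKM in IMQ+VEH and 11.99 FPKM in IMQ. Gins3 was the lowest of them at 1.78 FPKM in IMQ+IDMF, 1.41 and 1.32 FPKM in IMQ+VEH and 1.78 FPKM in IMQ. Pcna, the sliding clamp, was the most abundant of the 37 per length in every library (67.6 FPKM in IMQ+IDMF, 48.5 and 59.9 FPKM in IMQ+VEH, 58.8 FPKM in IMQ). Ccne2 was the lowest of the 37 except in IMQ+VEH replicate 1, where Pole was, with 0.995 FPKM in IMQ+IDMF, 0.910 and 0.703 FPKM in IMQ+VEH, and 0.977 FPKM in IMQ. Ccne2 also had the fewest counts, 57 to 102.

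All 5 licensing genes lay above both IMQ+VEH libraries. Cdt1, which brings the MCM complex to origins, had 24.6 CPM in IMQ+IDMF, against 13.1 and 17.2 CPM in IMQ+VEH and 14.7 CPM in IMQ (log2 fold change over IMQ+VEH 0.70, SE 0.33). Cdc6, the ATPase that works with it, had 7.56 CPM in IMQ+IDMF, against 5.17 and 4.98 CPM in IMQ+VEH and 8.55 CPM in IMQ (0.57, SE 0.45). Gmnn encodes geminin, the inhibitor of CDT1, and had 17.2 CPM in IMQ+IDMF, against 15.4 and 15.02 CPM in IMQ+VEH and 22.8 CPM in IMQ (0.18, SE 0.33). Cdt1 was thus highest in IMQ+IDMF and Gmnn highest in IMQ. The FPKM ratio of Cdt1 to Gmnn, chosen after its values were seen, was 0.557 in IMQ+IDMF, 0.332 and 0.449 in IMQ+VEH, and 0.252 in IMQ. The origin recognition genes Orc1 and Orc6 had log2 fold changes of 0.39 and 0.30, with an SE of 0.53 and 0.35.

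Of the 10 fork genes, 9 lay above both IMQ+VEH libraries, with a median log2 CPM difference of 0.36 to their mean. Pole, the catalytic subunit of the leading strand polymerase, had 11.6 CPM in IMQ+IDMF, against 8.06 and 7.12 CPM in IMQ+VEH and 11.0 CPM in IMQ (log2 fold change over IMQ+VEH 0.61, SE 0.40). Prim1, the primase catalytic subunit, had 23.9 CPM in IMQ+IDMF, against 16.8 CPM in each IMQ+VEH library and 25.1 CPM in IMQ (0.51, SE 0.31). Pcna had 98.6 CPM in IMQ+IDMF, against 66.1 and 89.0 CPM in IMQ+VEH and 89.6 CPM in IMQ (0.35, SE 0.28). For Pole and Prim1 the IMQ+VEH pair stood below the other 2 libraries, whereas for Pcna replicate 2 was level with IMQ. Pold1 of the lagging strand polymerase, the ligase gene Lig1, the polymerase alpha gene Pola1 and the flap nuclease gene Fen1 had log2 fold changes of 0.44, 0.37, 0.35 and 0.35. The clamp loader genes Rfc4, Rfc5 and Rfc3 were at 0.30, 0.097 and 0.054, each below its SE.

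All 4 nucleotide supply genes lay above both IMQ+VEH libraries. Tk1, the thymidine kinase of cycling cells, had 32.6 CPM in IMQ+IDMF, against 20.3 and 19.6 CPM in IMQ+VEH and 30.3 CPM in IMQ (log2 fold change over IMQ+VEH 0.71, SE 0.29). Rrm2, the regulated subunit of ribonucleotide reductase, had 48.5 CPM in IMQ+IDMF, against 33.7 and 37.5 CPM in IMQ+VEH and 55.6 CPM in IMQ (0.45, SE 0.27). Tyms, the thymidylate synthase, had 41.5 CPM in IMQ+IDMF, against 31.4 and 33.9 CPM in IMQ+VEH and 36.8 CPM in IMQ (0.35, SE 0.28). Rrm1, the large reductase subunit, had 0.27 (SE 0.26). In these genes the IMQ+VEH libraries lay close together and below both other libraries.

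The 3 chromatin genes had the largest median of the 6 groups, at a log2 CPM difference of 0.74. Chaf1b, a subunit of the CAF-1 chaperone that places histones on new DNA, had 16.1 CPM in IMQ+IDMF, against 6.31 and 10.3 CPM in IMQ+VEH and 9.06 CPM in IMQ (log2 fold change over IMQ+VEH 0.95, SE 0.41). Uhrf1, which guides DNA methylation onto the new strand, had 47.4 CPM in IMQ+IDMF, against 26.2 and 30.8 CPM in IMQ+VEH and 40.9 CPM in IMQ (0.73, SE 0.28). Chaf1a, another CAF-1 subunit, had 20.1 CPM in IMQ+IDMF, against 14.5 and 14.0 CPM in IMQ+VEH and 22.1 CPM in IMQ (0.49, SE 0.32). The 2 CAF-1 genes thus differed in pattern, since IMQ was near IMQ+IDMF for Chaf1a and between the IMQ+VEH libraries for Chaf1b. For Chaf1b the IMQ+VEH pair differed by 0.71 in log2 CPM, more than the 0.63 between replicate 2 and IMQ+IDMF.

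Among the S phase entry genes, E2f1, an activator of this gene set, had 14.4 CPM in IMQ+IDMF, against 11.2 and 10.2 CPM in IMQ+VEH and 10.4 CPM in IMQ (log2 fold change over IMQ+VEH 0.43, SE 0.37). Ccne1, a cyclin E gene, had 8.05 CPM in IMQ+IDMF, against 6.27 and 5.71 CPM in IMQ+VEH and 6.42 CPM in IMQ (0.43, SE 0.45). Ccne2, the other cyclin E gene, had 3.89 CPM in IMQ+IDMF, against 3.24 and 2.78 CPM in IMQ+VEH and 4.02 CPM in IMQ (0.37, SE 0.57). For E2f1 and Ccne1 the IMQ library sat near the IMQ+VEH pair, and IMQ+IDMF stood above all 3.

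The genes with the widest gap to both IMQ+VEH libraries were Mcm10, Gins2, Tk1, Chaf1b, Uhrf1, Mcm2, Cdc6 and Pole. On GRCm38 they lie on chromosome 2 (4989714 to 5012791) for Mcm10, chromosome 8 (120578633 to 120589304) for Gins2, chromosome 11 (117815526 to 117826092) for Tk1 and chromosome 16 (93883901 to 93906115) for Chaf1b. Uhrf1 lies on chromosome 17 (56303321 to 56323486), Mcm2 on chromosome 6 (88883474 to 88898780), Cdc6 on chromosome 11 (98907801 to 98923940) and Pole on chromosome 5 (110286306 to 110337474). Exons of 13 of the 37 genes overlap exons of a gene on the other strand. The 13 are Gins2, Tk1, Pole, Mcm7, Cdc45, Orc1, Orc6, Rfc4, Rfc5, Fen1, Lig1, Chaf1a and Ccne2. The strand setting of the counting was not stated in the sources used here, so reads of overlapping genes cannot be told apart. Reads of Pcna and Tyms may likewise be shared with processed pseudogenes annotated in GENCODE. No search for pseudogenes was made across the 37 genes, so others may share this limit.

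IMQ+VEH was set against IMQ to see how skin under imiquimod differed with the lotion alone. Cell type markers differed too. Adipocyte markers summed to 1786 and 1292 CPM in IMQ+VEH and 475 CPM in IMQ. Sebaceous markers summed to 5337 and 4832 CPM, against 2161 CPM, and skeletal muscle markers to 23839 and 17063 CPM, against 12374 CPM. Neutrophil markers went the other way, at 4530 and 2195 CPM, against 8721 CPM. The part of these cells in the replication gene values was not tested. Both IMQ+VEH libraries lay under IMQ for 29 of the 37 replication genes and over it for 1 (Cdc45, the CMG subunit), as they did for 35.0% and 33.5% of tested genes. The median log2 CPM difference was -0.39 for the IMQ+VEH mean, -0.48 for replicate 1 and -0.31 for replicate 2, against -0.014 for the mean over all tested genes. EdgeR called none of the 37 (smallest adjusted p = 0.477, for Rrm2), while it called 0.325% of tested genes lower and 0.338% higher. Unadjusted p was under 0.05 for Pola1 and Rrm2, both lower, and by that rule 2.55% of tested genes were lower and 6.26% higher. DESeq2 gave 0 of the 37 by adjusted and 0 by unadjusted p.

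The genes farthest below IMQ in both IMQ+VEH libraries were Pola1, Cdc6, Chaf1a, Prim1, Tk1 and Rrm2. Pola1, the catalytic subunit of the polymerase that starts each new strand, had 12.1 and 11.7 CPM in IMQ+VEH, against 20.3 CPM in IMQ (log2 fold change -0.77, SE 0.34), and 15.2 CPM in IMQ+IDMF. Cdc6, Rrm2, Chaf1a, Tk1 and Prim1, whose values are given above, had log2 fold changes of -0.75, -0.65, -0.63, -0.60 and -0.58 in IMQ+VEH over IMQ (SE 0.44, 0.27, 0.32, 0.29 and 0.31). These 6 were picked for that gap. Cdc45 had 9.41 and 10.6 CPM in IMQ+VEH, against 9.14 CPM in IMQ (0.13, SE 0.39), and 11.98 CPM in IMQ+IDMF. Nucleotide supply genes had the lowest group median, at -0.54, and S phase entry genes the one nearest to 0, at -0.10.

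IMQ+IDMF and IMQ were 1 library each, so sizes only are given. IMQ+IDMF was above IMQ for 25 of the 37 genes, with 50.1% as the background, and the median log2 CPM difference was 0.080. By 1.5-fold, 3 genes were higher in IMQ+IDMF (14.5% of tested genes) and 0 were lower (10.7%). The 3 were Gins2 at 1.81 times, Chaf1b at 1.78 times and Cdt1 at 1.67 times the IMQ level. At the other end, Gins1, Rfc5, Pola1 and Gmnn were at 0.718, 0.750, 0.751 and 0.755 times. The replication genes thus stood near their IMQ level in IMQ+IDMF as a group, with single genes on either side.

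The only measure of spread between libraries treated alike is the IMQ+VEH pair. The sample number of replicate 2 is far from those of the other 3 libraries, and no batch is stated, so a batch difference within the pair, which would enter its spread and every SE, was not tested. Replicate 2 was above replicate 1 for 26 of the 37 genes, against 47.0% of tested genes, with a median log2 CPM difference of 0.15 and a median absolute difference of 0.17. By 1.5-fold, 2 genes were higher in replicate 2 (6.32% of tested genes), Chaf1b and Rfc4, and 0 were lower (18.3%). Total counts in place of TMM sizes brought the pair's median to 0.032. Fibroblast and macrophage markers, given above, were lower in replicate 2 than in replicate 1. Their part in the difference was not tested.

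Other genes of the replication pathway, a list of 62 that held origin recognition, polymerase, single-strand binding, checkpoint and nucleotide genes, mostly lay on the same side. In IMQ+IDMF, 44 of 62 lay above both IMQ+VEH libraries and 5 below both, where 27.7% and 27.5% of tested genes did. The median log2 CPM difference to the mean was 0.27. None passed edgeR's test or DESeq2's, and by edgeR 2 had an unadjusted p under 0.05, both higher, against 0.484% of tested genes higher. The 4 with the widest gap above were Chek1, Clspn, Ung and Hells. Chek1, a checkpoint kinase, had 9.61 CPM in IMQ+IDMF, against 4.88 and 4.58 CPM in IMQ+VEH. Clspn, its adaptor, had 11.98 CPM in IMQ+IDMF, against 7.20 and 5.76 CPM in IMQ+VEH. Ung, which removes uracil from DNA, had 19.7 CPM in IMQ+IDMF, against 9.05 and 11.9 CPM in IMQ+VEH, and Hells, a chromatin remodeler, had 17.0 CPM in IMQ+IDMF, against 11.7 and 10.7 CPM in IMQ+VEH. E2f2 had the widest gap below, at 19.1 CPM in IMQ+IDMF against 22.4 and 24.6 CPM in IMQ+VEH, followed by Orc3 at 25.5 CPM in IMQ+IDMF against 32.5 and 28.1 CPM in IMQ+VEH. Rpa3 and Pole2 came next, at 13.1 CPM and 6.75 CPM in IMQ+IDMF, with Rpa3 at 13.4 CPM in each IMQ+VEH library and Pole2 at 7.59 and 6.88 CPM in IMQ+VEH. Over IMQ, both IMQ+VEH libraries were lower for 39 of the 62 and higher for 7, where 35.0% and 33.5% of tested genes were. The median was -0.26. No gene passed edgeR's test or DESeq2's there, and 4 had an unadjusted p under 0.05 by edgeR, all lower, against 2.55% of tested genes lower.

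Mitosis genes are the nearest set in the cell cycle. For all 24, both IMQ+VEH libraries were under IMQ, against 35.0% of tested genes, with a median log2 CPM difference of -0.62 for the mean. In IMQ+IDMF, 14 of 24 lay above both IMQ+VEH libraries and 2 below both, where 27.7% and 27.5% of tested genes did. The median was 0.24 against the IMQ+VEH mean, with 0.017 against replicate 1 and 0.36 against replicate 2. Only 2 of the 24, Prc1 and Kif23, were above IMQ in IMQ+IDMF, against 50.1% of tested genes, and the median to IMQ was -0.43. Mki67, the proliferation marker, had 104.5 CPM in IMQ+IDMF, against 116.4 and 73.2 CPM in IMQ+VEH and 171.6 CPM in IMQ. Ccnb1, the mitotic cyclin, had 26.7 CPM in IMQ+IDMF, against 27.2 and 23.3 CPM in IMQ+VEH and 50.4 CPM in IMQ. No mitosis gene passed edgeR's test in either comparison (smallest adjusted p = 0.192, for Ccnb1 in IMQ+VEH over IMQ) or DESeq2's. An unadjusted p under 0.05 by edgeR was found for 0 in IMQ+IDMF over IMQ+VEH and for 8 in IMQ+VEH over IMQ. All 8 were lower, as were 2.55% of tested genes by that rule. The difference between the lists was not tested. The ratio of summed CPM of replication to mitosis genes was 1.56 in IMQ+IDMF, 1.07 and 1.60 in IMQ+VEH, and 1.04 in IMQ, so IMQ+VEH replicate 2 was as high as IMQ+IDMF.

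**Figure D3:**
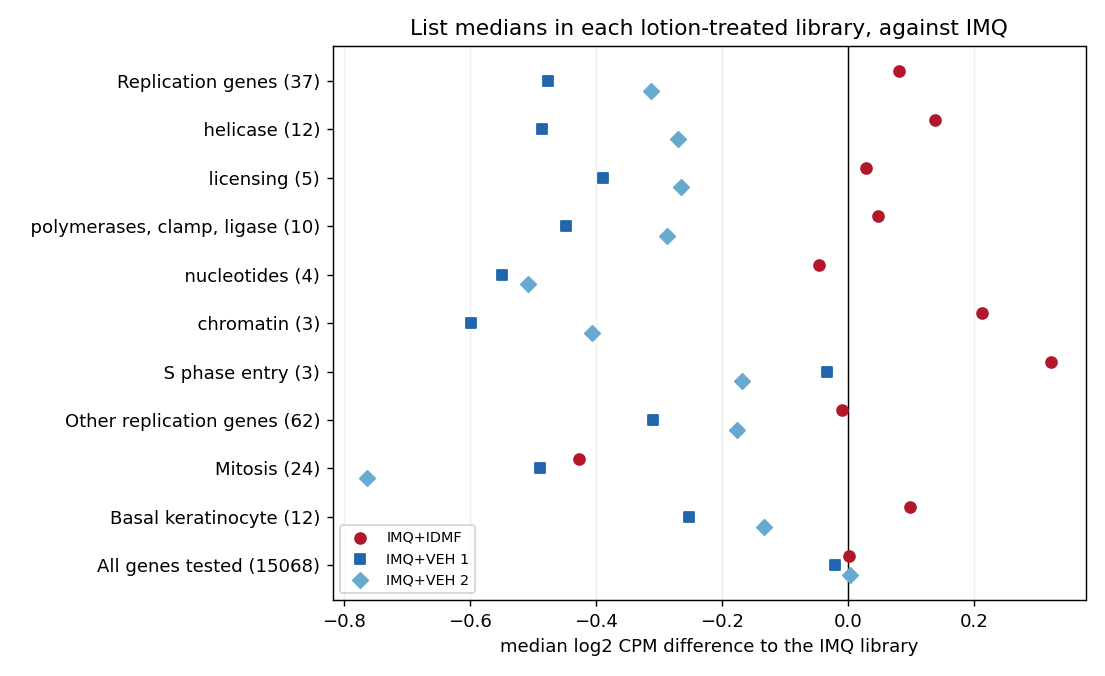
Median log2 CPM difference to the IMQ library (horizontal axis) for each list of genes (vertical axis, number of genes in brackets), with 1 point for each lotion-treated library. For the replication genes IMQ+IDMF is at 0.080 and the IMQ+VEH libraries at -0.48 and -0.31, while for the mitosis genes IMQ+IDMF is at -0.43, beside -0.49 and -0.76.

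Markers of basal keratinocytes and of the hair follicle differed beside the replication genes. Of 12 basal keratinocyte genes, 6 had both IMQ+VEH libraries under IMQ (35.0% of tested genes). In IMQ+IDMF, 11 of the 12 lay above both IMQ+VEH libraries (27.7% of tested genes), with a median log2 CPM difference of 0.32. Measured relative to that median, the replication genes' difference was 0.10 in place of 0.42. Per 1000 summed CPM of basal keratinocyte genes, replication genes had 76.7 CPM in IMQ+IDMF, 65.6 and 71.2 CPM in IMQ+VEH, and 54.6 CPM in IMQ. The low value of IMQ rests on Krt14. Without it the values were 134.5 CPM in IMQ+IDMF, 120.8 and 128.1 CPM in IMQ+VEH, and 136.5 CPM in IMQ, a denominator chosen after the values were seen. Hair follicle markers were 18 genes, mostly keratins of the hair shaft and root sheath and few of the cycling matrix. Of these, 12 passed the filter on low counts. All 18 summed to 38.1 CPM in IMQ+IDMF, 15.2 and 18.2 CPM in IMQ+VEH, and 105.1 CPM in IMQ. Of the 18, 1 had no count in IMQ+IDMF, 6 had none in each IMQ+VEH library and 0 had none in IMQ. T and NK cell markers, another possible source of cycling cells, summed to 10.1 CPM in IMQ+IDMF, 14.2 and 12.6 CPM in IMQ+VEH, and 16.5 CPM in IMQ. The part of these cells in the replication gene values was not tested.

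**Figure D4:**
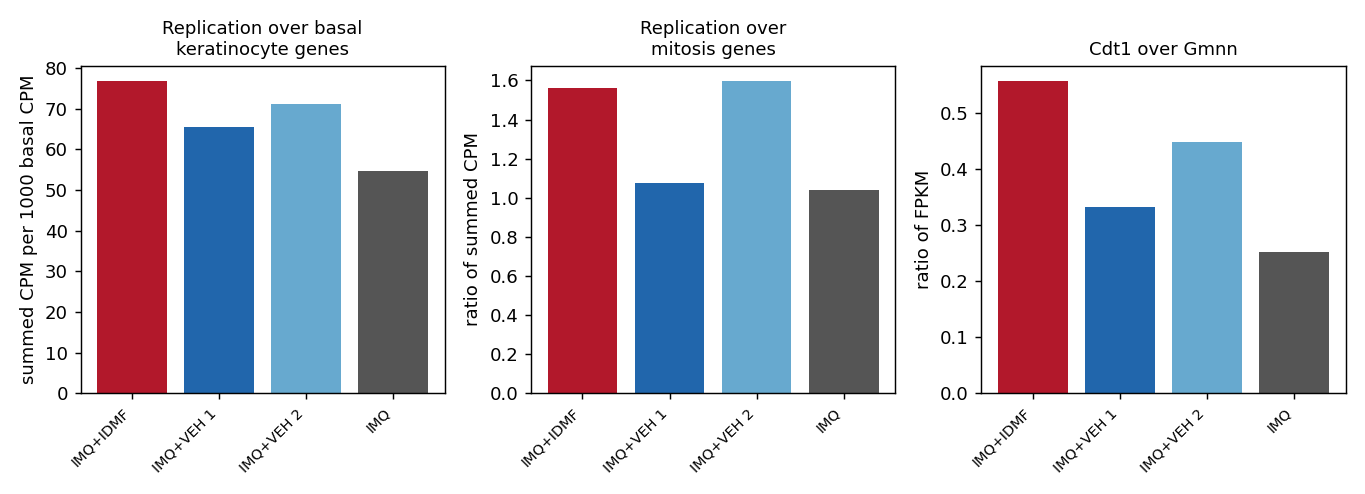
Ratios in each library (bars): summed CPM of the replication genes per 1000 CPM of basal keratinocyte genes, summed CPM of replication over mitosis genes, and FPKM of Cdt1 over Gmnn. IMQ+IDMF is the highest bar at left (76.7) and right (0.557), while in the middle IMQ+VEH replicate 2 (1.60) is as high as IMQ+IDMF (1.56). Without Krt14 among the basal genes, the left ratio is 134.5 in IMQ+IDMF and 136.5 in IMQ. The right ratio was chosen after its values were seen.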

How the data were processed

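For each of 4 libraries the authors deposited a table of 20611 gene symbols with a raw count and an FPKM value per gene, per the file headers. GRCm38 and mm10 appear as builds, and HTSeq, Cufflinks and TopHat2 as tools, per the submitters' processing notes, with versions, annotation, strand setting and multi-mapped reads not given in the sources used here. Sequencing was single-end, 50 cycles, per the labels' protocols. Counts were fitted over all genes with edgeR 4.0.16 under R 4.3.3 by its two-sided quasi-likelihood test, after filterByExpr (15068 genes left), with TMM sizes and 1 mean per group. The Benjamini-Hochberg method was applied over all of them at 0.05. Only IMQ+VEH is replicated, giving 1 residual and 11.2 prior degrees of freedom, and the single libraries were assumed to vary like these. The biological coefficient of variation shared by all genes was 24.0%. SE is the fold change over the square root of F. Log2 CPM differences used a prior count of 2. FPKM served to compare levels between genes. DESeq2 1.42.0 was an alternative. The fit was tested on simulated data with changes larger than any seen in the replication genes. That test does not show whether changes of their size would be called. Positions came from GENCODE M21 (GRCm38) and promoters from RefSeq (GRCm38.p6). Genes were named by their gaps to other libraries, with a fixed set besides, and all 37 are named. The members and lists were chosen with earlier results of these data known. Libraries are independent biological replicates, per the labels. Pooling of animals is not stated there.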

Additional observations from a re-analysis of the deposited data

How the results depend on the processing

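The direction of the replication genes changed little with the processing. The count above both IMQ+VEH libraries was 36 or 37 of 37 under DESeq2 size factors, total counts, FPKM and a prior count of 0.5. A mean count of at least 50 could not change it, since all 37 pass. With 1 IMQ+VEH replicate left out, IMQ+IDMF is compared with the remaining one only. That count could not fall below the main one and was 36 or 37. The count below IMQ in both IMQ+VEH libraries ran from 25 (FPKM) to 29 with both replicates kept. It was 31 without replicate 1 and 34 without replicate 2, where it could likewise not fall. With 1 IMQ+VEH replicate left out, the median difference ran from 0.37 to 0.47 for IMQ+IDMF over IMQ+VEH, and from -0.48 to -0.31 for IMQ+VEH over IMQ. On the log2(FPKM + 1) scale, which understates low genes, the medians were 0.29 and -0.22, and relative to the basal keratinocyte median 0.10 and -0.25. The median of IMQ+IDMF over IMQ became -0.018 relative to basal keratinocytes. Within the IMQ+VEH pair the median was 0.032 with total counts and 0.017 with FPKM. The summed ratio to basal keratinocyte genes in IMQ+IDMF was 1.12 times the IMQ+VEH mean, 1.11 times with FPKM and 1.08 times without Krt14; the ratio to mitosis genes was 1.17 times its own IMQ+VEH mean. No fit that was run called a replication gene. Over all genes, IMQ+IDMF against IMQ+VEH had 16 calls with no filter on low counts and 0 otherwise. IMQ+VEH against IMQ had 100, which became 195 with DESeq2 and 424 with no filter; the cause was not tested. Of 185 refitted fold changes per comparison, 1 and 7 changed sign, each without 1 replicate and each from a value within its SE. With each value given first without replicate 1 and then without replicate 2, these were Rfc3 (-0.035, 0.15) in IMQ+IDMF over IMQ+VEH, and Gins2 (-0.16, 0.14), Gins4 (0.14, -0.065), Cdt1 (0.22, -0.17), Rfc4 (0.26, -0.38), Fen1 (0.027, -0.14), Chaf1b (0.19, -0.52) and E2f1 (-0.021, 0.11) in IMQ+VEH over IMQ. Those fits have no residual degrees of freedom and give no test. No paired analysis was possible because IMQ+VEH is the sole group with 2 libraries. Each of these genes had at least 57 counts in each library. Depth was not varied.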

Other observations

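Genes that hold cells back from S phase were counted in the same way. Of 9 tested genes of cyclin-dependent kinase inhibitors and the retinoblastoma family, 2 lay above both IMQ+VEH libraries in IMQ+IDMF and 2 below both (27.7% and 27.5% of all tested genes did), with a median log2 CPM difference of -0.021 to the IMQ+VEH mean. None passed edgeR's test or DESeq2's. By edgeR, 0 had an unadjusted p under 0.05 in IMQ+IDMF over IMQ+VEH, and 1, Cdkn2c, in IMQ+VEH over IMQ. Rbl1, the p107 pocket protein gene and itself an E2F target, had 22.4 CPM in IMQ+IDMF, against 17.8 and 17.6 CPM in IMQ+VEH and 25.3 CPM in IMQ. Cdkn1a, the p21 gene, was the most abundant at 249.2 CPM in IMQ+IDMF, against 217.7 and 293.8 CPM in IMQ+VEH and 239.7 CPM in IMQ. Cdkn2c, the p18 gene, had 43.2 CPM in IMQ+IDMF, against 40.9 and 41.9 CPM in IMQ+VEH and 25.3 CPM in IMQ. Cdkn2a had 1 to 5 counts per library and was not tested. Rbl1, Cdkn1a and Cdkn2c were chosen after their values were seen.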
